A study of Mus musculus with 12 samples.

Results

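The RNA on tagged ribosomes of leptin receptor cells was compared with the RNA left behind in the same tissue, in mice whose leptin receptor cells were to lack STAT3. The comparison rests on 6 of the 12 libraries of the series, chosen by their titles: 3 bead-bound and 3 supernatant libraries of the group called Stat3KO, paired by pool. The tissue was adult mouse hypothalamus, taken at the midpoint of the light cycle as a block with edges of 3 mm, and 5 to 8 animals were pooled for each replicate. The Stat3KO genotype is given as LepRb-Cre/Cre with Stat3-flox/flox and R26-GFP:L10a/GFP:L10a, and the controls (Ctrl, 3 pools) carry the same Cre and L10a alleles without the floxed Stat3. Sex, feeding state and age in weeks are not given in the labels.

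LepRb is the long, signalling form of the receptor for leptin, a hormone made by fat. Binding activates the kinase JAK2 and through it the transcription factor STAT3, which raises transcription of genes such as Pomc and Socs3. In translating ribosome affinity purification, Cre switches on a green fluorescent fusion of ribosomal protein L10a, and antibody on beads then pulls down tagged ribosomes with the mRNA they carry. The tag marks every cell in which Cre has acted at any time, so the beads sample the LepRb lineage, and the supernatant holds RNA of the remaining tissue together with LepRb cell RNA that escaped the pull-down. In tissue RNA of this kind, more cells of a type and more RNA per cell cannot be told apart.

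The Stat3KO libraries held 24552775 to 41829907 counts, and those of all 12 libraries began at 20743217. Pool 1 stood apart in both fractions: its counts differed from those of pools 2 and 3 by a chi-square of 75.5 and 75.5 per gene on the beads, against 16.0 between pools 2 and 3. In the supernatant the same values were 38.8, 40.7 and 12.1. Pool 1 of Ctrl stood apart likewise. Its values were 48.4 and 72.6 against 12.8 on the beads, and 25.1 and 29.2 against 5.91 in the supernatant. Several calls changed without Stat3KO pool 1, and where the text describes such a change it gives the call both ways. Not every such change is described. Levels are in CPM, a gene's count relative to the TMM-scaled size of its library, fold changes are log2 ratios of bead-bound over supernatant RNA with their standard error (SE), and adjusted p-values are from edgeR with the pool as a block, over all genes tested. No source says that the kit recorded strand, so where genes overlap their reads cannot be separated.

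Beads and supernatant differed across much of the transcriptome. Of 18107 genes tested, 4290 (23.7%) were higher and 4709 (26.0%) were lower on the beads, 49.7% in all, and the median over all genes was -0.03. At least 2-fold changes were unevenly split, with 625 genes (3.45%) higher and 1815 (10%) lower. In 4294 genes (23.7%) all 3 bead libraries lay above all 3 supernatant libraries, and in 4552 (25.1%) they all lay below. The balance depends on scaling: with library totals in place of TMM factors 3096 genes were higher and 5430 lower, so that 36.3% of the called genes were higher instead of 47.7%, and the median gene moved to -0.13. Counts for a list of genes are therefore read against these shares of all genes. The same comparison in Ctrl called 5307 genes higher (29.4%) and 5237 lower (29.0%) of 18036, 58.5% in all. The genes called higher in both genotypes numbered 3907, which is 91.1% of the Stat3KO and 73.6% of the Ctrl list, and those called lower in both numbered 4083, or 86.7% and 78.0%.

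The pull-down and its target cells came first. Gfp_L10a, the transgene that encodes the tagged ribosomal protein, was at 82.2, 161 and 148 CPM on the beads of pools 1, 2 and 3 and at 7.39, 14.7 and 15.3 CPM in the supernatant. The groups did not overlap, and pool 1 was the lowest in both fractions (log2 ratio 3.39, SE 0.105, adjusted p = 4.78e-12). Cre was also higher on the beads (2.29, SE 0.324). The endogenous gene Rpl10a, which encodes the untagged protein, stood at 6.46 ± 0.897 CPM (SD, n = 3) on the beads and 6.38 ± 1.55 CPM in the supernatant and did not pass (0.03, adjusted p = 0.909). How reads were divided between the tag and Rpl10a is not given in the sources used here.

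Lepr (ENSMUSG00000057722; GRCm38 chromosome 4, 101717404 to 101815352), which encodes the leptin receptor, was at 9.76, 11.2 and 13.5 CPM on the beads against 2.32, 2.5 and 2.10 CPM in the supernatant. Every bead library was above every supernatant library, a fitted 4.86-fold difference (log2 ratio 2.28, SE 0.175, adjusted p = 1.27e-07). Stat3, the targeted gene, was still counted on the beads at 114, 148 and 159 CPM, above the 54.6, 74.3 and 79.8 CPM of the supernatant (1.01, SE 0.0897, adjusted p = 5.13e-07). These counts are for the whole gene, an exon of which overlaps Stat5a on the other strand, and are no check of the deletion. In Ctrl the Stat3 ratio was 1.46, and the difference between genotypes did not pass (-0.44, SE 0.0999, adjusted p = 0.213).

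Of 18 genes of leptin receptor signalling, 9 were higher and 3 lower on the beads, with a median of 0.34 (all genes -0.03). Irs4, which encodes an insulin receptor substrate known from hypothalamic neurons, was at 320 ± 69.1 against 70.6 ± 7.31 CPM (2.15, SE 0.105). The feedback inhibitors Socs3, at 5.71 ± 2.00 against 2.53 ± 0.473 CPM (1.13, adjusted p = 0.000281), and Cish (1.14, adjusted p = 0.000113) were higher on the beads of mice labelled as lacking STAT3. Jak2 (-0.18, adjusted p = 0.151) and the phosphatase gene Ptpn1 (-0.18, adjusted p = 0.137) did not pass. The 3 lower genes, Irs1, Pik3r1 and Pik3ca, have small ratios of -0.58, -0.34 and -0.30, and only 1 of them was called without pool 1, without pool 2 or without the pool block. With library totals 5 genes of the list were lower, Jak2 (-0.28, adjusted p = 0.0441) and Ptpn1 (-0.29, adjusted p = 0.0279) among them.

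Neuropeptide mRNAs held some of the highest ratios in the data. Of 41 neuropeptide genes tested (of 43 in the table; Kiss1 was not analysed here), 23 were higher and 11 lower on the beads, with a median of 0.62. Without pool 2 or without pool 3 the lower genes numbered 7. Agrp (ENSMUSG00000005705; chromosome 8, 105566698 to 105637393), whose product stimulates feeding by blocking melanocortin receptors, was at 722, 374 and 292 CPM on the beads and at 6.76, 7.58 and 4.47 CPM in the supernatant. No supernatant library came near any bead library, and on the beads pool 1 was the highest (log2 ratio 6.13, SE 0.182, adjusted p = 3.06e-12). One annotated Agrp exon shares bases with Ctcf on the other strand.

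Npy (ENSMUSG00000029819; chromosome 6, 49822710 to 49829507), the partner peptide gene of the same arcuate neurons, was at 2292, 1254 and 1069 CPM on the beads and 36.8, 28.6 and 23.9 CPM in the supernatant (5.63, SE 0.136, adjusted p = 6.17e-13). Pomc (ENSMUSG00000020660; chromosome 12, 3954951 to 3960642), precursor of the melanocortins that reduce feeding, was at 142, 138 and 101 CPM against 7.67, 7.53 and 6.17 CPM (4.15, SE 0.109, adjusted p = 9.29e-13). Both separated the fractions in every pool. Cartpt, a second peptide gene of the Pomc neurons, was at 219, 177 and 127 CPM on the beads and 54.4, 38.1 and 28.4 CPM in the supernatant (2.12, SE 0.0956). Its fractions did not overlap either, but its ratio was far below those of Pomc and Npy. Prlh, which encodes prolactin releasing hormone, reached 12.9 ± 3.60 against 0.378 ± 0.118 CPM (5.09, SE 0.255), and Ghrh, which encodes growth hormone releasing hormone, 25.5 ± 9.19 against 2.20 ± 0.402 CPM (3.52, SE 0.193). The neurotensin gene Nts was also higher on the beads (1.43, SE 0.112).

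**Figure D1:**
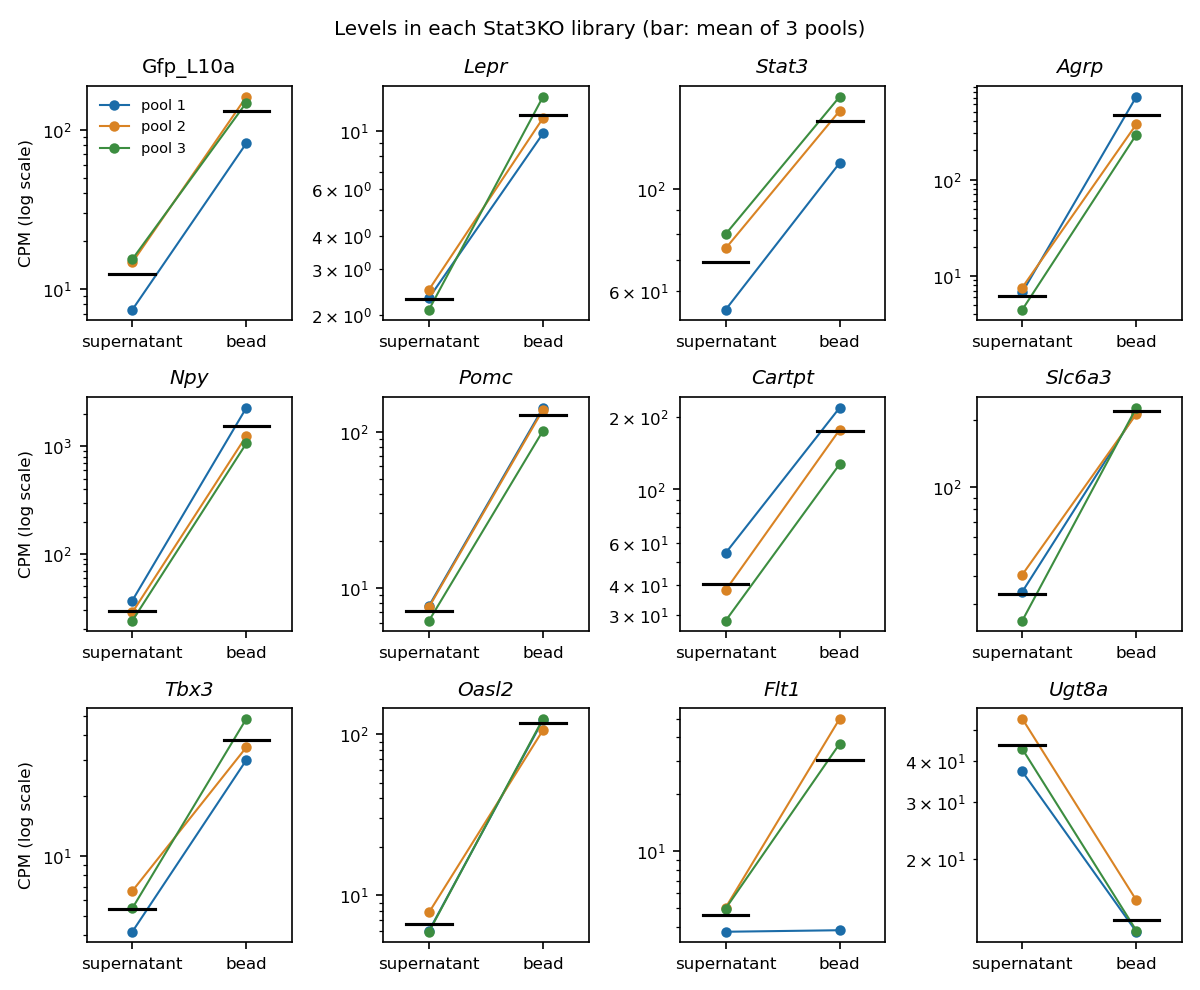
Level of 12 genes in each Stat3KO library, in CPM on a log axis, with a line joining the supernatant and bead library of 1 pool and a bar for the mean of the 3 pools. Agrp, Npy, Pomc and Oasl2 separate the fractions in every pool, Ugt8a runs the other way, and Flt1 differs little in pool 1 (3.76 and 3.83 CPM).

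Genes for peptides of some other hypothalamic nuclei were lower on the beads. Pmch, which encodes melanin concentrating hormone of the lateral hypothalamus, was at 52.4, 24.9 and 15.5 CPM on the beads and 101, 108 and 61.0 CPM in the supernatant (-1.68, SE 0.170, adjusted p = 1.90e-06). The genes of the magnocellular hormones oxytocin, Oxt (-1.62, SE 0.165), and vasopressin, Avp (-1.45, SE 0.158), were lower as well. For these 3 genes every bead library lay below every supernatant library, and pool 1 was the highest on the beads. Npff, for neuropeptide FF, had a lower ratio (-3.38), from a supernatant level of only 0.682 ± 0.118 CPM. Sst (0.18, adjusted p = 0.168), Penk (0.10, adjusted p = 0.453) and Trh (-0.26, adjusted p = 0.104) did not pass, although Trh was lower without pool 1 (-0.47, adjusted p = 0.000258) and with library totals (adjusted p = 0.0421).

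Genes for making and releasing peptides followed the same side. Of 20 genes of peptide processing and granules 15 were higher and 1 lower, with a median of 0.64. Scg2, which encodes a granin of dense core vesicles, was at 1001 ± 220 against 361 ± 49.5 CPM (1.45, SE 0.102), Pcsk1, the prohormone convertase gene, at 62.5 ± 3.93 against 27.9 ± 2.93 CPM (1.16, SE 0.101), and Pam, for the amidating enzyme, at 338 ± 21.5 against 153 ± 18.4 CPM (1.14, SE 0.0915). The bead libraries were above the supernatant libraries for each of these 3. Pcsk2 (0.06, adjusted p = 0.615) and Cpe (0.14, adjusted p = 0.244), which act in the same pathway, did not pass, and the peptidase gene Mme was lower (-0.88).

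Receptor genes were mixed. Of 57 tested, 24 were higher and 10 lower, with a median of 0.18, and without the pool block 5 were lower. Mc3r, a melanocortin receptor gene, was at 14.3 ± 2.54 against 2.94 ± 0.473 CPM (2.27, SE 0.163). Calcr, the calcitonin receptor gene, was at 54.8 ± 5.89 against 11.8 ± 2.74 CPM (2.22, SE 0.123), and Ghsr, for the ghrelin receptor, at 14.1 ± 0.979 against 3.13 ± 0.382 CPM (2.17, SE 0.157). The Y2 receptor gene Npy2r was higher too (1.58, SE 0.108). Mc4r, the other main melanocortin receptor gene of the brain, was at 3.28 ± 0.647 against 2.30 ± 0.216 CPM and did not pass (0.49, adjusted p = 0.0968), although it did without pool 1 (adjusted p = 0.00855). The largest falls were in Vipr2, a receptor gene for vasoactive intestinal peptide (-1.51), the opioid receptor gene Oprm1 (-1.31, lost without the pool block at adjusted p = 0.0666) and Ntsr2, a neurotensin receptor gene (-1.24).

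Genes of dopamine synthesis and transport were higher on the beads. Slc6a3, which encodes the dopamine transporter, was at 218, 214 and 228 CPM on the beads against 33.9, 40.4 and 25.1 CPM in the supernatant (2.74, SE 0.129, adjusted p = 7.00e-10). Its bead libraries were tight and far above the supernatant. Th, for tyrosine hydroxylase (2.59, SE 0.0989), Ddc, for the decarboxylase that makes dopamine (2.56, SE 0.110), and Slc18a2, for the vesicular monoamine transporter (2.01, SE 0.129), were the other 3 of the 4 higher genes among 18 of transmitter identity. The list as a whole had 6 lower genes and a median of -0.08. The GABA genes Gad1 (-0.15, adjusted p = 0.204), Gad2 (-0.06, adjusted p = 0.635) and Slc32a1 (0.12, adjusted p = 0.306) and the glutamate transporter gene Slc17a6 (-0.03, adjusted p = 0.820) did not pass, although Gad1 was lower with library totals (-0.26, adjusted p = 0.0208). Lower on the beads were the choline transporter gene Slc5a7 (-1.62), the cortical glutamate transporter gene Slc17a7 (-1.40) and Hdc, for the histamine enzyme (-1.03).

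Among 45 hypothalamic transcription factor genes 23 were higher and 13 lower, with a median of 0.37. Tbx3, known from arcuate neurons, was at 30.1, 34.9 and 48.5 CPM on the beads and 4.16, 6.66 and 5.46 CPM in the supernatant (2.77, SE 0.142, adjusted p = 1.80e-09). No libraries overlapped. Nr5a1, the defining factor of the ventromedial nucleus, was at 37.2 ± 8.65 against 5.87 ± 1.05 CPM (2.65, SE 0.125), and Foxa1 (2.31), Nkx2-4 (2.28) and Hmx2 (2.22) followed. Tbx3 shares exon bases with an antisense transcript. Lower were Onecut2 (-2.02), Meis2 (-1.46), Sim1, the factor of the paraventricular nucleus (-1.15), Lhx6 (-0.99, adjusted p = 0.0603 without the pool block) and Zic1 (-0.84).

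Further genes were taken from those outside every list that encode proteins, have a mean log2 CPM of at least 3 and move the same way in all 3 pools. Gsx1, a homeobox gene, was at 15.8 ± 2.73 against 1.20 ± 0.552 CPM (3.77, SE 0.196) and Cited1, for a transcriptional coactivator, at 183 ± 30.5 against 17.5 ± 1.61 CPM (3.37, SE 0.120). The homeobox gene En1 (2.96), Gch1, which makes the cofactor of tyrosine hydroxylase (2.58), and the nicotinic receptor gene Chrna6 (2.5) were also among the highest of these, as was the checkpoint ligand gene Cd274 (3.13). Among the lowest were Rreb1 (-2.44), the DNA demethylase gene Tet2 (-2.07), the calcium channel gene Ryr3 (-1.99) and Vcan, a matrix proteoglycan gene (-1.84).

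Imprinted genes, which are expressed from 1 parental allele, went both ways. Of 25 tested 14 were higher and 6 lower (3 lower by DESeq2 or without the pool block), with a median of 0.65. Asb4 was at 165, 170 and 214 CPM on the beads and 22.8, 31.9 and 27.1 CPM in the supernatant (2.74, SE 0.116), without overlap. Dlk1 (1.62), Ndn (1.34) and Plagl1 (1.23) encode proteins as well. The noncoding Meg3 was at 603 ± 339 against 4540 ± 478 CPM (-3.06, SE 0.205) and Rian at -1.69, and the growth factor gene Igf2 at -2.25. Meg3 shares exons with small RNA genes.

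Of 20 genes listed as leptin or STAT3 targets 14 were higher on the beads and 1 lower, with a median of 1.31. The list was drawn with earlier results of these libraries known. Pomc, Ghrh, Asb4 and Cartpt have been described. Serpina3n, for a secreted protease inhibitor, was at 98.1, 82.2 and 64.3 CPM on the beads against 12.3, 14.4 and 11.4 CPM in the supernatant (2.66, SE 0.120), which did not overlap. Its neighbour Serpina3i was at 1.97 ± 0.337 against 0.176 ± 0.130 CPM (3.40, SE 0.453), and reads of the near-identical Serpina3 copies may have been divided between them. The lower gene was Arid5a (-0.66), which did not pass without pool 2 (adjusted p = 0.0586) or pool 3 (adjusted p = 0.193).

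**Figure D2:**
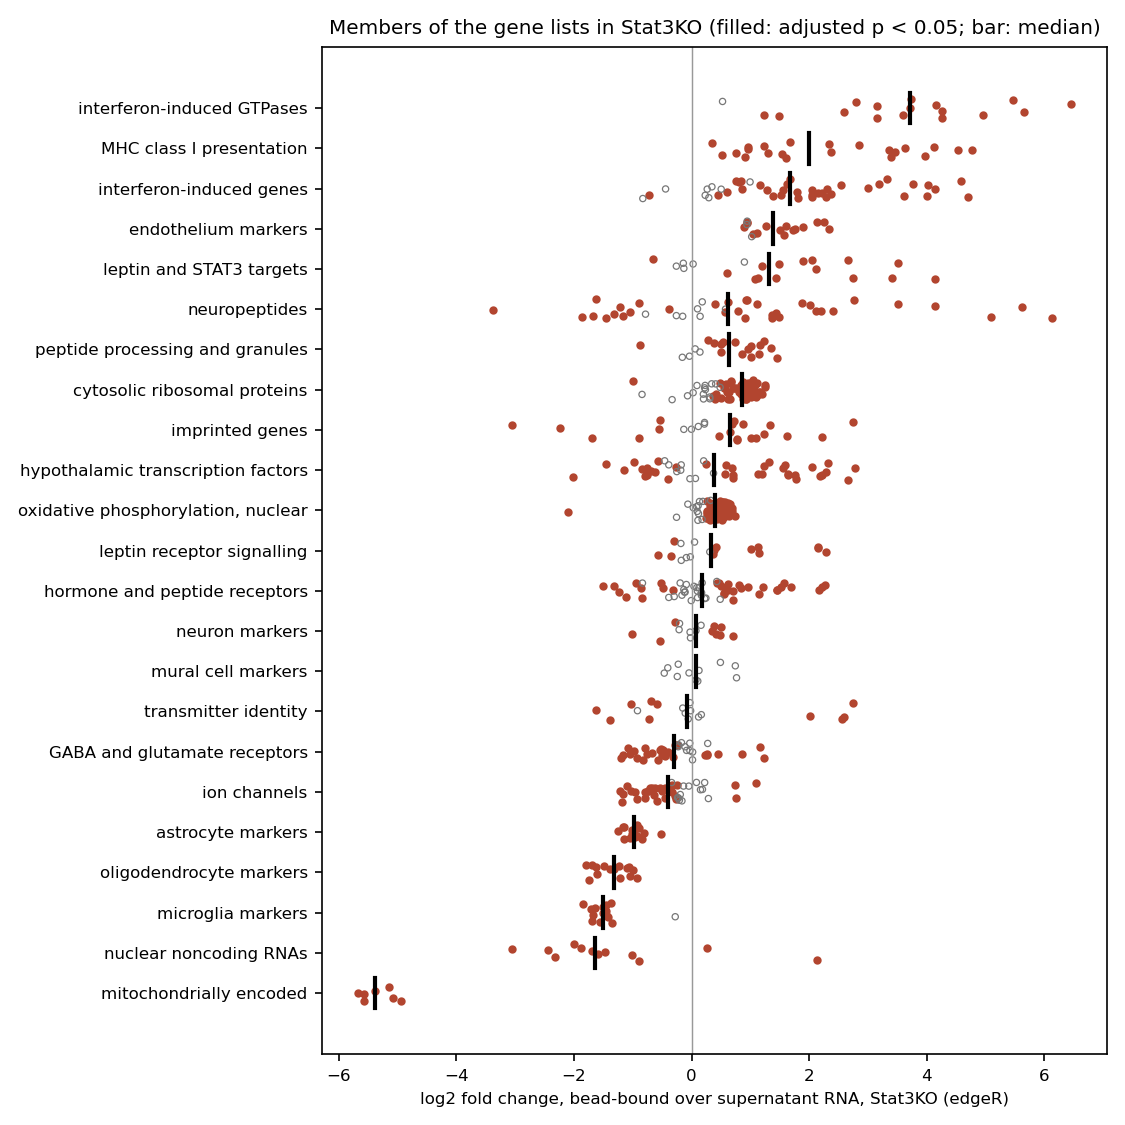
Log2 ratio of bead-bound over supernatant RNA in Stat3KO for the tested members of 23 gene lists, 1 point a gene, filled where edgeR's adjusted p is under 0.05, with a bar at the median. Interferon-induced GTPases have the highest median (3.71) and mitochondrially encoded genes the lowest (-5.39).

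Transcripts of many genes that interferons induce were on the beads. Interferons act through transcription factors that bind the interferon-stimulated response element or the gamma-activated site of antiviral genes. Of 43 interferon-induced genes 34 were higher and 1 lower on the beads (median 1.67), of 17 tested interferon-induced GTPase genes 16 were higher and 0 lower (3.71), and of 22 genes of MHC class I presentation 22 were higher (2.00). A gene could pass the filter on low counts by its bead counts alone. Without that filter 33 of 43, 16 of 18 and 22 of 22 were higher. The 3 lists hold 60 of the 625 genes that were called at least 2-fold higher. The lists were chosen with such results known. Their counts of higher genes are to be set beside the 23.7% of all genes. The 60, taken out of the 43, 17 and 22 members tested, are to be set beside the 3.45% of all genes called at least 2-fold higher.

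Promoters of these genes were searched for the response element, taken as GAAA, any 2 bases and GAAA again, and for the gamma-activated site, spelled TTCNNNGAA, on both strands and with overlapping matches allowed. RefSeq windows on GRCm38 of 250 bases before to 50 after the start were used. The first motif occurred in 3.44% of 32851 windows. Counted by gene, it was in at least 1 window of 3.99% of 27025 genes. By the same count it was in windows of 14 of 31 interferon-induced genes with an entry, of 9 of 10 GTPase genes, of 5 of 19 MHC class I genes and of 2 of 34 neuropeptide genes. The second occurred in 8.30% of windows and, by gene, in 9.55% of genes, and in windows of 7, 6, 1 and 2 genes of the same 4 lists. A match is a run of letters and says nothing on binding. The following stretches, each of 100 bases upstream of the start and read 5′ to 3′ along the gene's own strand, are those of 4 genes whose transcripts were on the beads in every Stat3KO pool. Capitals mark the first motif on either strand. They lie at chr19:34640765-34640864 on the plus strand (Ifit1), chr4:156200819-156200918 on the minus strand (Isg15), chr8:71537523-71537622 on the minus strand (Bst2) and chr3:142559944-142560043 on the plus strand (Gbp3).
Ifit1: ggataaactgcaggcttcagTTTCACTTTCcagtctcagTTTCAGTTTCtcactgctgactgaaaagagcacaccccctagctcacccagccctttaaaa
Isg15: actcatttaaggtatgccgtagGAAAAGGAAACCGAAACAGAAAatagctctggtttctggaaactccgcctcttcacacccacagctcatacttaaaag
Bst2: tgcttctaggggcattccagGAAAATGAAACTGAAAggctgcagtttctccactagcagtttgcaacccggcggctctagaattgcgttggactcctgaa
Gbp3: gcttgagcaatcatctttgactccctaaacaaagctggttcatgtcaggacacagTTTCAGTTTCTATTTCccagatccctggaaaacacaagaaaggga

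Ifit1 (ENSMUSG00000034459; chromosome 19, 34640871 to 34650009), whose product binds foreign RNA, has 2 separate matches in that stretch, and its mRNA was at 75.3, 48.1 and 64.2 CPM on the beads against 2.90, 4.67 and 3.68 CPM in the supernatant (log2 ratio 4.03, SE 0.190, adjusted p = 7.00e-10). Isg15 (ENSMUSG00000035692; chromosome 4, 156199424 to 156200818), with 3 overlapping matches, encodes a ubiquitin-like protein and was at 27.2, 13.6 and 15.1 CPM against 0.984, 1.71 and 1.70 CPM (3.61, SE 0.263). Both fractions were far apart for each gene, and pool 1 was the highest on the beads.

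Bst2 (ENSMUSG00000046718; chromosome 8, 71534255 to 71537456), for tetherin, which holds back budding viruses, was at 65.8, 39.2 and 34.6 CPM on the beads and 2.73, 1.80 and 1.23 CPM in the supernatant (4.58, SE 0.134, adjusted p = 2.59e-12). Gbp3 (ENSMUSG00000028268; chromosome 3, 142560026 to 142573209), of the guanylate binding proteins, was at 57.7, 35.0 and 48.7 CPM against 1.94, 2.68 and 2.57 CPM (4.26, SE 0.180, adjusted p = 2.37e-10). Neither overlapped. Oasl2, of the oligoadenylate synthetase family, has no match before its start and was at 123, 106 and 125 CPM against 6.01, 7.81 and 5.93 CPM (4.15, SE 0.135, adjusted p = 8.24e-12), with the tightest bead values of the 5.

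The GTPase genes include near-identical copies, such as Tgtp1 with Tgtp2 and the Gbp cluster, so single members are less certain than the group. Ifi47 was at 36.3 ± 8.11 against 0.777 ± 0.209 CPM (5.46, SE 0.205), though an exon of it overlaps other annotated genes. In the MHC class I list B2m, for the shared light chain and named after its values were seen, was at 444, 230 and 233 CPM on the beads against 34.7, 26.0 and 19.7 CPM in the supernatant (3.45, SE 0.117). Pool 1 was the highest and the fractions were wide apart. The immunoproteasome gene Psmb8 (4.12, SE 0.204) and the peptide transporter gene Tap1 (3.63, SE 0.166) stood beside it. Not every interferon gene was enriched: Mx1 (0.99, adjusted p = 0.0725; 0.0491 without pool 2), Oas2 (-0.83, adjusted p = 0.279) and Oas3 (-0.44, adjusted p = 0.524) did not pass, and Ifitm3 was lower (-0.73, adjusted p = 0.0103; 0.0603 without pool 3 and 0.0536 by DESeq2).

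In the Ctrl pools the interferon-induced and GTPase lists lacked most of this enrichment, while most MHC class I genes were higher there too, with a smaller median. There 11 of 37 interferon-induced genes were higher and 12 lower (median 0.12), 3 of 13 GTPase genes higher and 1 lower (0.32), and 18 of 22 MHC class I genes higher (0.85). Among all genes tested in Ctrl 29.4% were higher and 29.0% lower. The filter on low counts was applied to each genotype alone, so the first 2 lists are shorter in Ctrl. Their counts and medians are therefore not over the same genes in both genotypes. Zbp1, at 7.18 CPM on Stat3KO and 0.114 CPM on Ctrl beads, had no test within Ctrl. The difference of the ratios, Stat3KO minus Ctrl, was tested over 19122 genes in all 12 libraries. It was higher in Stat3KO for 55 genes (0.288%) and lower for 4 (0.0209%), 0.309% in all, and at least 2-fold for 49 (0.256%) and 3 (0.0157%). Of the 55, 41 stand in the 3 lists: 24 interferon-induced, 8 GTPase and 9 MHC class I genes. The count of higher genes was 33 without Ctrl pool 2, 35 without Stat3KO pool 3 and 116 without pool 1 of both genotypes. Microglial markers, the list of the resident immune cells, were lower on the Stat3KO beads, at a summed 35.0 to 68.8 CPM against 93.4 to 140 CPM in the supernatant, with 0 of 15 higher. In Ctrl 14 of 15 were lower as well (median -1.67). Among genes in no list, the difference was called for Irf8 (ratio 0.79 in Stat3KO, -1.44 in Ctrl) and H2-Aa (1.42 and -1.05). Which cells the interferon-induced transcripts came from was not tested.

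**Figure D3:**
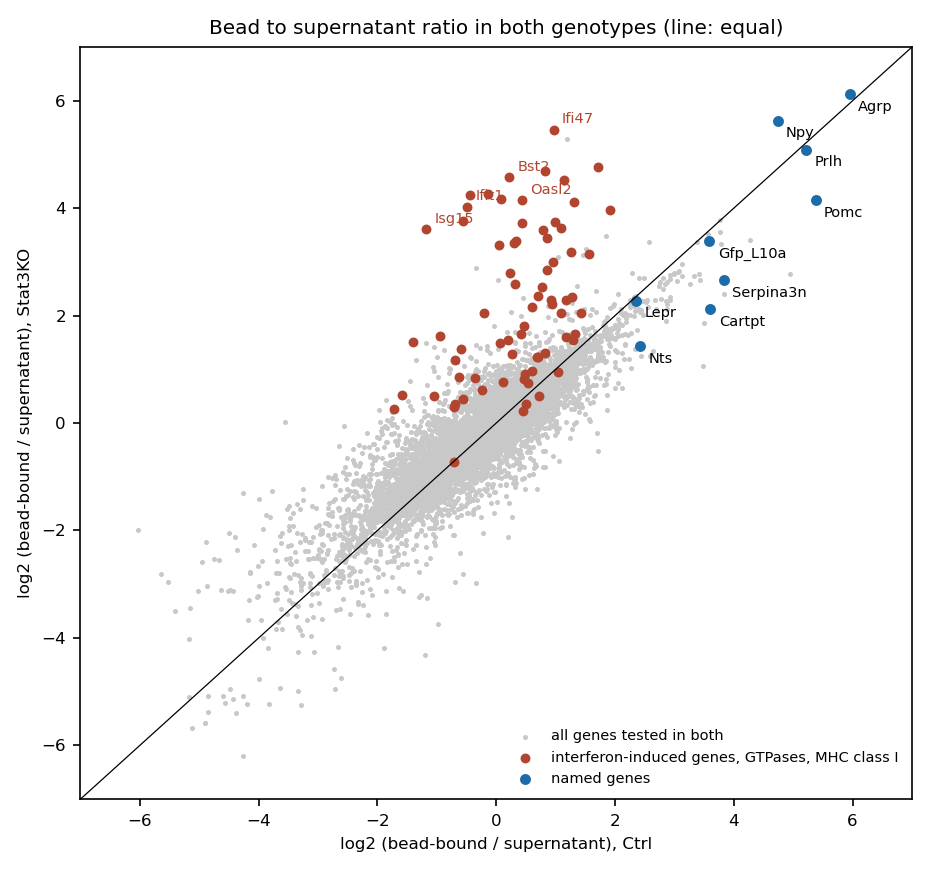
Log2 ratio of bead-bound over supernatant RNA in Ctrl (x axis) and Stat3KO (y axis) for each gene tested in both, with a line of equal ratios. Many members of the 3 interferon and MHC lists lie above the line (Bst2 at 0.21 and 4.58), Agrp lies close to it, and Pomc, Cartpt, Nts and Serpina3n lie below.

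Isg15 and Bst2 were scarce on the Ctrl beads. Isg15 was at 0.875, 0.448 and 0.618 CPM on the beads of Ctrl, below its own supernatant (1.51, 1.21 and 1.58 CPM), so its ratio was -1.18 there and 3.61 in Stat3KO (difference 4.80, SE 0.462, adjusted p = 0.000233). For Bst2 the Ctrl fractions overlapped, at 1.01 ± 0.207 and 0.889 ± 0.269 CPM, and the difference was 4.39 (SE 0.234, adjusted p = 4.49e-06). Ifit1 differed by 4.53 (SE 0.319, adjusted p = 1.66e-05) and Oasl2 by 3.72 (SE 0.210, adjusted p = 4.49e-06). Oasl2 was at 118 ± 10.2 CPM on Stat3KO and 5.26 ± 0.317 CPM on Ctrl beads, and at 6.58 ± 1.07 and 4.00 ± 0.829 CPM in the supernatants.

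The peptide genes differed less and in both directions. For Npy the ratio was 5.96, 5.45 and 5.48 in the 3 Stat3KO pools and 4.76, 4.74 and 4.68 in Ctrl, a difference of 0.90 (SE 0.135, adjusted p = 0.0105). The pools of the genotypes did not overlap, but the call was lost without Ctrl pool 2 (adjusted p = 0.0764), without Ctrl pool 3 (0.0615) and without the pool block (adjusted p = 1). For Agrp the ratios were 6.73, 5.61 and 6.01 against 6.41, 5.67 and 5.88, which overlap (difference 0.18, SE 0.274, adjusted p = 1). Its level was higher in Stat3KO in both fractions: 463 ± 228 against 129 ± 9.48 CPM on the beads, and 6.27 ± 1.61 against 2.04 ± 0.606 CPM in the supernatant.

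The 4 genes with a lower ratio in Stat3KO were Cartpt, Pomc, Serpina3n and Nts. The Stat3KO pools had Cartpt ratios of 2.01, 2.22 and 2.16, below the 3.58, 3.49 and 3.73 of the Ctrl pools (difference -1.47, SE 0.106, adjusted p = 1.66e-05; adjusted p = 0.117 without the pool block). Pomc had 4.20, 4.19 and 4.03 against 5.54, 5.30 and 5.29 (-1.22, SE 0.114, adjusted p = 0.000183). Each gene kept its 2 sets of pools apart. Serpina3n differed by -1.16 (SE 0.153, adjusted p = 0.00358; 0.438 without the pool block). Nts differed by -0.98 (SE 0.166, adjusted p = 0.0272), and lost its call without Stat3KO pool 2 (0.141), Stat3KO pool 3 (0.0752), Ctrl pool 3 (0.0883) or the pool block (1). All 4 were still higher on the beads than in the supernatant of Stat3KO. For Lepr (-0.06), Gfp_L10a (-0.18), Ghrh (-0.04) and Prlh (-0.12) the difference did not pass, with an adjusted p of 1 for each.

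Ion channel genes and GABA and glutamate receptor genes were mostly lower on the beads. Of 42 ion channel genes 3 were higher (5 without pool 1) and 26 lower, with a median of -0.40. Trpc6, of a cation channel family that leptin signalling uses, was at 5.66 ± 0.798 against 2.64 ± 0.644 CPM (1.09, SE 0.199), while Trpc5 did not pass (-0.19, adjusted p = 0.294). The calcium channel gene Cacna1g was at 58.3 ± 13.4 against 133 ± 10.6 CPM (-1.22, SE 0.110), and the potassium channel gene Kcna1 at -1.18. Of 38 GABA and glutamate receptor genes 7 were higher and 21 lower, with a median of -0.29. The higher genes numbered 3 without the pool block, 4 without pool 2 or with library totals and 3 without pool 3. The subunit genes Gabre (1.24, SE 0.113) and Gabrq (1.17, SE 0.0972) led the higher ones, and Gria3 (-1.20) and Gabrd (-1.17) the lower ones.

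Genes of ribosomal proteins, of oxidative phosphorylation and of the endoplasmic reticulum were mostly higher. Of 78 ribosomal protein genes 62 were higher and 1 lower (median 0.85), with Rpl37 at 70.2 ± 15.5 against 29.3 ± 5.27 CPM (1.24, SE 0.0959). Of 64 nuclear genes of oxidative phosphorylation 51 were higher and 1 lower (median 0.40), but 26 were higher without the pool block. Many pseudogene copies of both families exist, and reads may have been divided between them. Of 16 genes of endoplasmic reticulum chaperones and stress 12 were higher and 1 lower, or 6 higher without the pool block, with the chaperone gene Hspa5 at 278 ± 53.0 against 140 ± 17.7 CPM (0.98, SE 0.0980).

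Transcripts made in mitochondria, which cytosolic ribosomes do not translate, had the lowest ratios of any list. Of 13 listed, 7 passed the filter on low counts and all 7 were lower (median -5.39). mt-Co1 was at 91.7, 72.7 and 57.7 CPM on the beads against 2702, 2734 and 1498 CPM in the supernatant (-4.95, SE 0.132, adjusted p = 9.81e-13), and the fractions were 30.8-fold apart. They made up 0.0172% to 0.0311% of bead counts and 0.639% to 1.23% of supernatant counts. Nuclear noncoding RNAs had a median of -1.64, with 10 of 12 lower. Malat1 was at 33.9, 159 and 57.8 CPM on the beads and 306, 199 and 148 CPM in the supernatant, which overlap (-1.59, adjusted p = 0.00123; 0.0545 without the pool block and 0.0927 by DESeq2). Miat (-2.44) and Neat1 (-1.88) were lower too. Xist, the RNA of the inactive X chromosome, went the other way, at 9.95, 113 and 45.9 CPM against 4.77, 22.2 and 6.33 CPM (2.13, SE 0.220). It varied widely between pools, and its exons overlap Tsix on the other strand.

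Of 17 immediate early genes, a class that neuronal activity induces, 5 were higher and 6 lower (median -0.16). The higher genes numbered 3 without pool 2, without pool 3 and without the pool block, and the lower genes 1 without pool 3 and 3 without the block. Without pool 1, 6 were higher and 8 lower. Nr4a2, also a factor of dopamine neurons, was at 64.8 ± 16.5 against 18.7 ± 3.74 CPM (1.77, SE 0.100), Npas4 was lower (-1.81), and Fos did not pass (0.03, adjusted p = 0.903).

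Markers of other cells were checked against the labelled tissue. Neuron markers were near balance, with 6 of 15 higher and 3 lower (median 0.07): Uchl1 at 0.70, Stmn2 at 0.51, and the dendritic Map2 at -1.01. The lower ones numbered 5 without pool 1 or with library totals and 1 without pool 3, and the higher ones 3 without the pool block. Most glial markers were lower: 15 of 15 astrocyte (median -0.99), 15 of 15 oligodendrocyte (-1.33), 8 of 9 oligodendrocyte precursor (-1.18; 5 without pool 3 or without the pool block) and 14 of 15 microglial genes (-1.50). The ninth precursor gene, C1ql1, was higher (0.46, adjusted p = 0.0151). It did not pass without pool 1 (adjusted p = 0.0927), without pool 2 (0.0595), without the pool block (0.159) or with library totals (0.0627). Ugt8a, which encodes an enzyme of myelin lipid synthesis, was at 11.9, 14.9 and 12.0 CPM on the beads against 37.2, 54.2 and 43.7 CPM in the supernatant (-1.80, SE 0.106), so that glial RNA was reduced on the beads and not absent. The astrocyte gene Slc1a2 was at 178 ± 25 against 391 ± 53.5 CPM (-1.14, SE 0.0904) and the microglial gene Tmem119 at 1.51 ± 0.566 against 5.26 ± 0.154 CPM (-1.85, SE 0.242). All 5 blood genes were lower (median -1.11). Of 11 striatum and cortex markers 2 were higher and 5 lower, or 1 and 1 without the pool block. Their summed level in pools 1, 2 and 3 was 724, 412 and 465 CPM on the beads and 898, 389 and 545 CPM in the supernatant. The single gene Ppp1r1b varied more between pools, at 164, 18.2 and 30.0 CPM on the beads and 244, 43.8 and 94.6 CPM in the supernatant.

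Endothelial markers were the exception, and they split by pool. Of 18, 15 were higher (median 1.38), but only 4 had all bead libraries above all supernatant libraries. The median ratio was -0.33 in pool 1, 2.15 in pool 2 and 1.86 in pool 3. Their summed level on the beads was 75.7 CPM in pool 1, 356 in pool 2 and 242 in pool 3, against 80.2, 83.8 and 67.6 CPM in the supernatant. Flt1, a receptor gene for vascular endothelial growth factor, was at 3.83, 50.1 and 37.0 CPM on the beads and 3.76, 5.04 and 4.98 CPM in the supernatant (2.25, SE 0.405, adjusted p = 0.000342; 0.0615 without pool 3). Without pool 1 all 18 were higher, without pool 2 the number was 7, without pool 3 it was 3, and DESeq2 called 4. In Ctrl 17 of 18 were higher (median 1.60). Mural cell markers had 0 of 11 called in either direction (6 higher without pool 1, 3 by limma-voom and 0 by DESeq2), with pool medians of -1.08, 1.02 and 0.11. Vessel cells are among those reported to express leptin receptor, and whether these transcripts came from tagged cells was not tested.

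**Figure D4:**
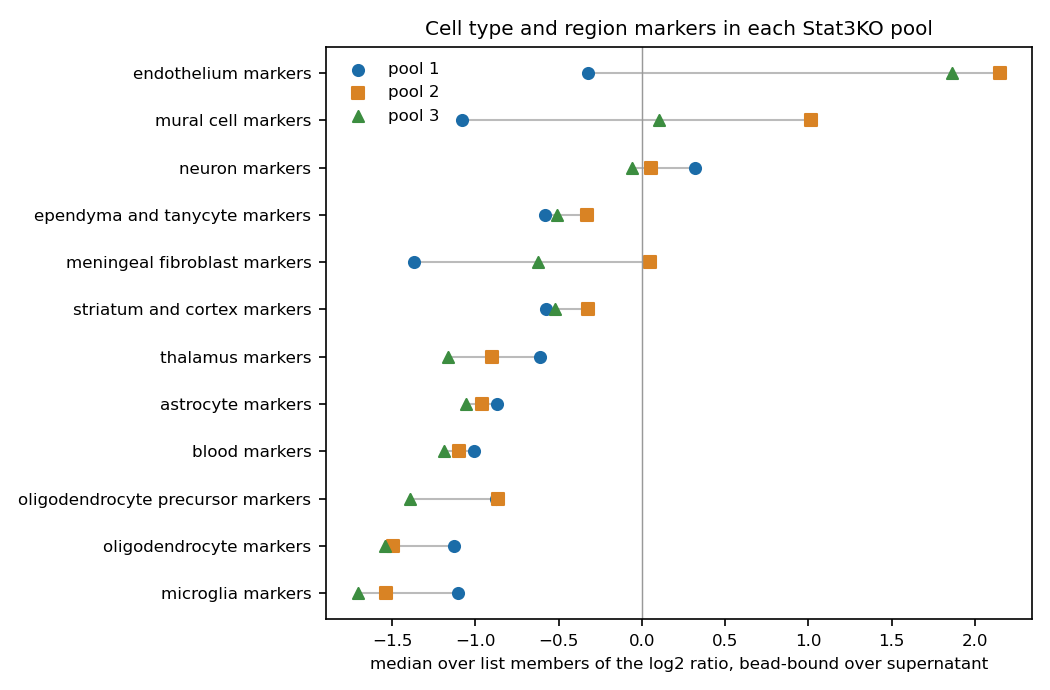
Median log2 ratio of bead-bound over supernatant RNA for 12 lists of cell type or region markers, with 1 point per Stat3KO pool. Glial lists lie below 0 in every pool, while the endothelial median is -0.33 in pool 1 and 2.15 and 1.86 in pools 2 and 3.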

How the data were processed

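The values are the authors' deposited raw read counts, whole numbers for each gene and library, from reads mapped to mm10 with STAR 2.5.3a, per the submitters' processing notes. The counting tool and the annotation release were not given in the sources used. Per the labels, RNA integrity numbers were 8 or more and libraries were made by the TruSeq mRNA kit, read in 50 cycles, single end. The table has 52638 entries, of which 52489 matched GENCODE M21 (GRCm38) identifiers, which gave names and coordinates. Reads carry no molecular identifiers, so depth bears on counting error only.

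The test was the quasi-likelihood F test of edgeR 4.0.16 (R 4.3.3) on TMM-scaled libraries, after filterByExpr (count minimum 10, total minimum 15), with the pool as a block and a 2-sided Benjamini-Hochberg adjusted p under 0.05. Each replicate is a separate pool of mice, and bead and supernatant of 1 number come from 1 pool. Their deviations from the group means correlated across genes at r = 0.388, 0.278 and 0.244, against -0.302 to 0.131 for unlike numbers. Deviations from a shared mean cancel out within a fraction, so positive values for like numbers push the others down. These values alone do not show that the fractions share a pool. The SE is the size of the log2 ratio over the square root of F. CPM uses TMM factors over all 12 libraries, and ratios per pool use a prior count of 2. The difference between genotypes was fitted on 12 libraries with 6 pools as blocks. Alternatives were DESeq2 1.42.0, limma-voom (limma 3.58.1), other scalings and filters, no block, and leaving out pools. The edgeR script was tested on simulated counts. Promoter windows are RefSeq's on GRCm38.p6.

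The comparison and the gene lists were chosen with earlier results of these data known. Named are 12 fixed genes, up to 5 passing genes at each end of a list with some that did not pass, up to 12 genes in no list at each end, and up to 10 at each end of the difference between genotypes. Further genes were chosen after their values were seen. Results for some genes are not reported here.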

Additional observations from a re-analysis of the deposited data

Results flagged for a closer look

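The bead to supernatant ratio differed between genotypes, by edgeR's test of the difference itself over 12 libraries (Stat3KO minus Ctrl, log2, adjusted p under 0.05), for the following genes named by the rule. Among interferon-induced GTPase genes the difference was 4.6 for Iigp1, 4.39 for Gbp3 and 4.37 for Ifi47. Among other interferon-induced genes it was 4.80 for Isg15, 4.53 for Ifit1, 4.46 for Zbp1, 4.39 for Bst2, 4.31 for Rtp4, 3.87 for Ifi44 and 3.72 for Oasl2. Antigen presentation genes differed by 3.37 (H2-Q7), 3.11 (H2-Q6), 2.82 (Psmb8) and 2.55 (Tap1), and the peptide gene Npy by 0.90. Of genes in no list, Gm4951 differed by 7.53, Gm12250, which is annotated as a processed pseudogene, by 5.08, Serpina3f, for a protease inhibitor, by 4.14, Parp10 by 2.65, Trim21 by 1.89 and Cd274 by 1.67. Gm4951 was at 10.9 CPM on Stat3KO and 0.0514 CPM on Ctrl beads, and Gm12250 at 17.2 and 0.158 CPM. The size of these 2 differences rests on few Ctrl counts. In the other direction stood Nts (-0.98), Serpina3n (-1.16), Pomc (-1.22) and Cartpt (-1.47). Several calls did not hold under every setting. Zbp1 passed narrowly (adjusted p = 0.0473) and gave 0.482 without Ctrl replicate 2. With Stat3KO replicate 1 left out, the adjusted p was 0.0605 for Zbp1 and 0.0556 for Ifi44. Without Ctrl replicate 3 the adjusted p was 0.898 for Serpina3f, 0.343 for H2-Q6, 0.203 for Ifi44 and 0.0866 for Gm12250. Without Ctrl replicate 2 it was 0.251 for H2-Q7. By limma-voom it was 0.0613 for Serpina3f, 0.0613 for Ifi44, 0.0711 for H2-Q6, 0.0789 for H2-Q7 and 0.114 for Zbp1. Without the replicate block it was 0.0964 for Serpina3f, 0.115 for Ifi44 and 0.0696 for Zbp1. Npy, Nts, Cartpt and Serpina3n also lost their call under settings given with their values. H2-Q6 and H2-Q7 are near-identical copies. No explanation of these differences was tested.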

How the results depend on the processing

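The counts of genes that differed between Stat3KO fractions (4290 higher, 4709 lower) stayed within 1.5 times under DESeq2, limma-voom, other scalings, other filters, all 12 libraries and leaving out each pool. A pair of settings moved them: without the replicate block 2669 were higher and 3135 lower, and asking for at least 2-fold left 625 and 1815. Of the 768 genes in lists or named, 125 lost their call without the block, 105 of 766 without replicate 3, 71 of 766 without replicate 2 and 28 of 768 without replicate 1; none changed sign and passed. The difference between genotypes (55 higher, 4 lower) gave 113 and 33 without the filter on low counts, and 37 and 2 without the replicate block. DESeq2 gave 9 lower. Leaving out 1 pool gave 33 to 52 higher and 3 to 9 lower. Without pool 1 of both genotypes, which was added after seeing the data, the counts were 116 and 21, and the calls of all 59 genes held. Other settings lost many of these 59 calls: 23 without the replicate block, 22 without Ctrl replicate 2 and 21 without Stat3KO replicate 3. Leaving out Ctrl replicate 3 lost 15, and each remaining setting lost 13 or fewer. Depth limits the genes near 1 CPM or less in the supernatant, whose ratios depend on few counts. The causes of these shifts were not tested.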
